A study of Triticum turgidum subsp. durum with 4 samples.

Results

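The wheat-specific miRNA families numbered miR9652 to miR9783 (without miR9674) were examined in shoots of durum wheat seedlings. Members were the sequences whose names start with tae- and carry one of these numbers, with 1 sequence counted once. This gave 144 different sequences in 31 families, of 2111 different sequences in all. Of these, 34 had the name of a mature miRNA and 110 were named as p5- or p3-derived sequences. The study defines derived sequences as lying on the hairpin arm opposite a mature miRNA. This did not hold for all of them, since hairpins such as miR9672b had derived sequences on both arms.

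The study asked whether drought and heat met by the parents leave a mark on the miRNAs of the next generation. DBA Aurora, described as stress-tolerant, gave the libraries TCG and TWH, and Line 6 (UAD1301020-8, here L6), described as stress-sensitive, gave SCG and SWH. CG seedlings came from parents grown under control conditions, and WH seedlings from parents that had water-deficit and heat stress. All seedlings were 12 days old and were themselves grown without stress, and each library was made from pooled shoot RNA of 8 seedlings. There was thus 1 library per group, so the tests between 2 libraries compare those libraries and carry no spread between plants, and a difference between the groups cannot be told apart from a difference between single pools.

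Plant miRNAs are cut by Dicer-like enzymes from hairpin transcripts and loaded into Argonaute proteins, where bases 2 to 8 (the seed) weigh heavily in the pairing with target transcripts. Most canonical plant miRNAs are 21 nt long and start with U, 22 nt miRNAs can set off the production of phased secondary siRNAs from their targets, and 24 nt small RNAs mostly come from repeats and act in DNA methylation. The families described here were entered in miRBase from bread wheat and, unlike miR156 or miR396, are not shared across land plants. For most of them the targets are not well known. An exception is miR9678, which in wheat acts on a long non-coding RNA, leads to phased siRNAs and delays seed germination.

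The sequences on which the results turn are given first, 5′ to 3′, with T for U as in the deposited table and the seed in capitals. The first set holds the most abundant members, with the opposite arm for several of them.
tae-miR9773_R+1: tTTGTTTTtatgttattttgtgaag
tae-MIR9670-p5: tTCTTCAAgtactccactttt
tae-miR9670-3p: aGGTGGAAtacttgaagaaga
tae-miR9662a-3p: tTGAACATcccagagccaccg
tae-MIR9662b-p5_1ss9CG: gCGGCTCTgtggtgttcaagc
tae-miR9772: tGAGATGAgattaccccatac
tae-MIR9672b-p3_1ss3GA: tAAGATACcacgactgtcatt
tae-MIR9672b-p5: tGAAGGCGatgcttaatgaca
tae-miR9672a-3p: cCACGACTgtcattaagcatc
tae-miR9776_L-1R+1_1ss18AG: tGGACGAGgatgtgcagctgc
tae-miR9664-3p_L-1: tGCAGTCCtcgatgtcgtag
tae-MIR9664-p5: aCGGCATAgaggcactgcaaa

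The next set holds members whose levels in the 4 libraries are described one by one, with their other arm where it was compared, and miR9678-3p.
tae-miR9661-5p_1ss14GA: tGAAGTAGagcagagacctca
tae-MIR9661-p3: aGGTGCCTgacctacttcatc
tae-miR9774_L+2: aACAAGATattgggtatttctgtc
tae-MIR9774-p5: aTACCCAAtatcttgctaga
tae-miR9654b-3p_1ss19GA: tTCCGAAAggcttgaagcaaat
tae-miR9654a-3p: tTCTGAAAggcttgaagcgaat
tae-miR9659-3p: tCCAATGGttgttcacggcatc
tae-MIR9779-p3: tACCTATGatgagttgcgaact
tae-miR9676-5p: tGGATGTCatcgtggccgtaca
tae-MIR9676-p3: tACGGCCTgatgacatccacg
tae-miR9678-3p: tCTGGCGAgggacatacactgt

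In these names, L and R give bases added to (+) or missing from (-) the left and right end of the reference miRNA, and 1ss14GA stands for 1 substitution, G14A, counted from the 5′ end. The 144 sequences held 97 different seeds, and no seed was shared between families. A seed was most often shared within miR9668, where 12 sequences had AAGTATT and another 12 had AGTATTT.

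The wheat families took 11.6% of the normalised miRNA counts in TCG, 11.5% in TWH, 12.8% in SCG and 12.4% in SWH. A normalised count is the read number of a sequence times 1 scaling factor per library, and the libraries held 994074, 1096670, 1293324 and 855716 miRNA reads in the same order. A sequence under about 5 reads in a library was listed at 0, so a 0 does not mean absence, and here a count of 0 allows about 5 reads, or 4.16 to 5.99 normalised counts. Of the 144 members, 92 (63.9%) were recorded in all 4 libraries, against 63.1% of all sequences. The level was very uneven: 14 members with a mean of at least 1000 normalised counts held 93.2% of the member counts, while 60 members had a mean below 10.

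A few families made up most of the counts. miR9773 alone held 25.8% of the member counts, followed by miR9662 with 18.0%, miR9670 with 15.6%, miR9672 with 11.8%, miR9772 with 9.85% and miR9776 with 5.07%. Over mature sequences alone these shares were 39.7% for miR9773, 18.3% for miR9662, 1.57% for miR9670, 0.943% for miR9672, 15.2% for miR9772 and 7.81% for miR9776, since miR9670 and miR9672 were read mostly from derived sequences. The family with the most sequences, miR9668, had 60 of the 144 but held 1.51% of the counts. The least abundant was miR9657, with a single sequence of 4.995 to 5.99 normalised counts in the 4 libraries.

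**Figure D1:**
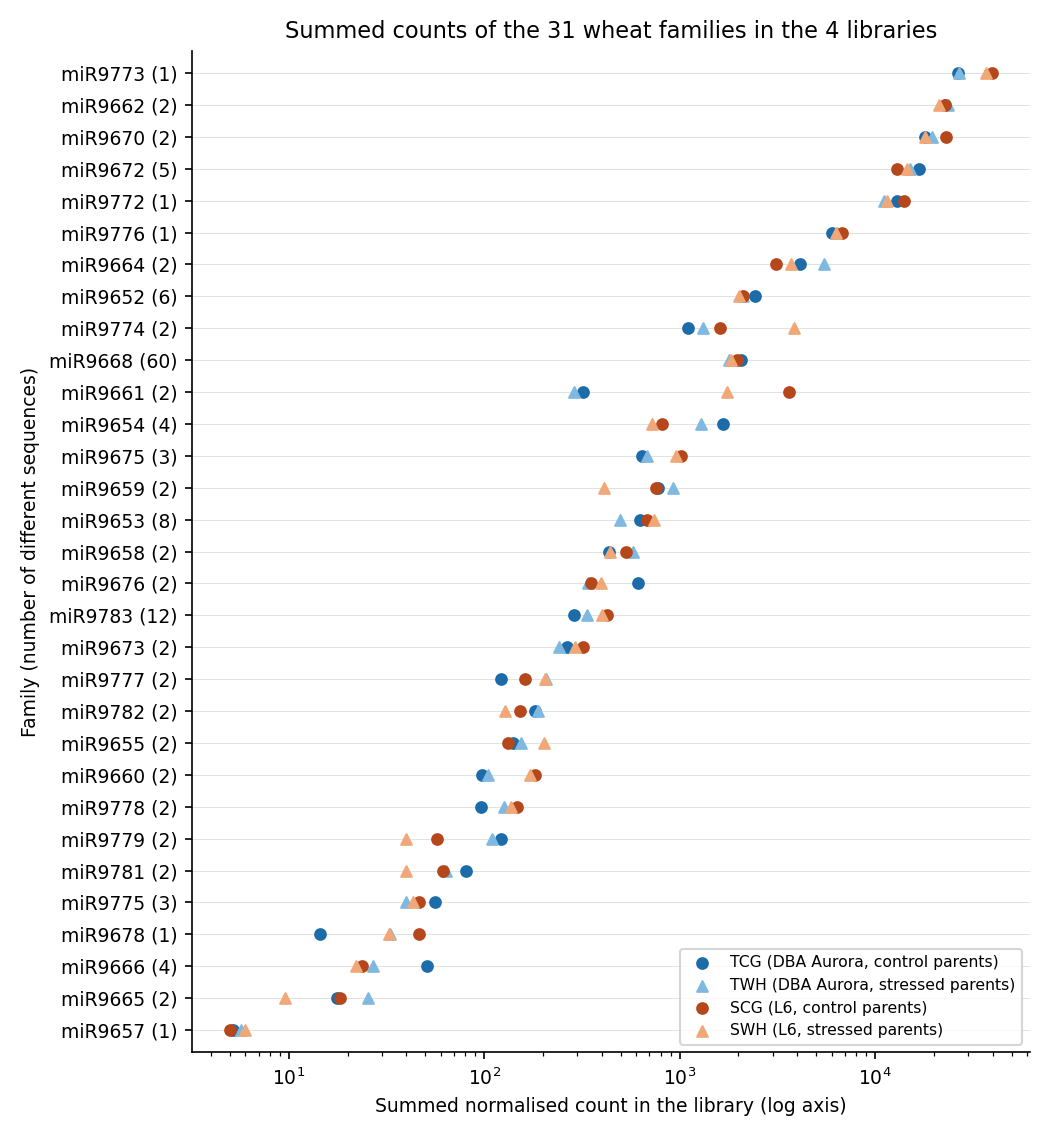
Summed normalised count of each of the 31 families (rows, with the number of different sequences in brackets) in each library on a log axis, 1 point per library. Most families lie within a narrow band over the 4 libraries, while the 2 L6 points of miR9661 (3607 and 1741) stand apart from the 2 DBA Aurora points (322 and 288), and the SWH point of miR9774 (3866) stands apart from the other 3 (1107 to 1614).

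The abundant members were steady over the libraries. Of the 14 members with a mean of at least 1000, 11 (78.6%) differed by less than 2-fold between their highest and lowest library, against 84.0% of the 106 sequences of that level in the whole data set. tae-miR9773_R+1, the most abundant member, had 26483 normalised counts in TCG, 26810 in TWH, 39508 in SCG and 36987 in SWH. It was thus 1.49-fold higher in SCG than TCG and 1.38-fold higher in SWH than TWH, with smaller differences between the seed sources of each genotype.

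tae-miR9662a-3p had 16765 normalised counts in TCG, 16100 in TWH, 14257 in SCG and 12644 in SWH, and values below follow the same order of libraries. tae-MIR9662b-p5_1ss9CG, assigned by the authors to the other arm of the same hairpin, had 6058, 7620, 8512 and 8499. It differs from that hairpin by C9G, so its hairpin of origin is not settled. The 3′ sequence was thus highest and the 5′ sequence lowest in TCG. tae-MIR9670-p5 had 16627, 18085, 21758 and 16686, with SCG above the other 3 libraries.

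tae-miR9772 had 12876, 11095, 14044 and 11546 normalised counts, a little higher in the CG library of each genotype. tae-MIR9672b-p3_1ss3GA had 12986, 11732, 9252 and 10779, and tae-miR9776_L-1R+1_1ss18AG had 5996, 6422, 6799 and 6310. None of these passed the fold criterion in any pair of libraries. tae-miR9664-3p_L-1 had 3749, 5119, 2963 and 3483, with both WH libraries above their CG counterparts.

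Lengths and first bases separated the counts from the list of names. Among the members, 43 sequences (29.9%) were 21 nt and held 63.8% of the counts, and 52 (36.1%) were 24 nt and held 2.81%. The length of 25 nt held 25.8% of the member counts, almost all of it tae-miR9773_R+1, against 0.166% in all other sequences, and 22 nt held 3.41% against 24.3%. A T as first base was found in 52 of the 144 sequences (36.1%), which held 86.0% of the member counts, while in all other sequences these shares were 44.1% and 59.2%.

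**Figure D2:**
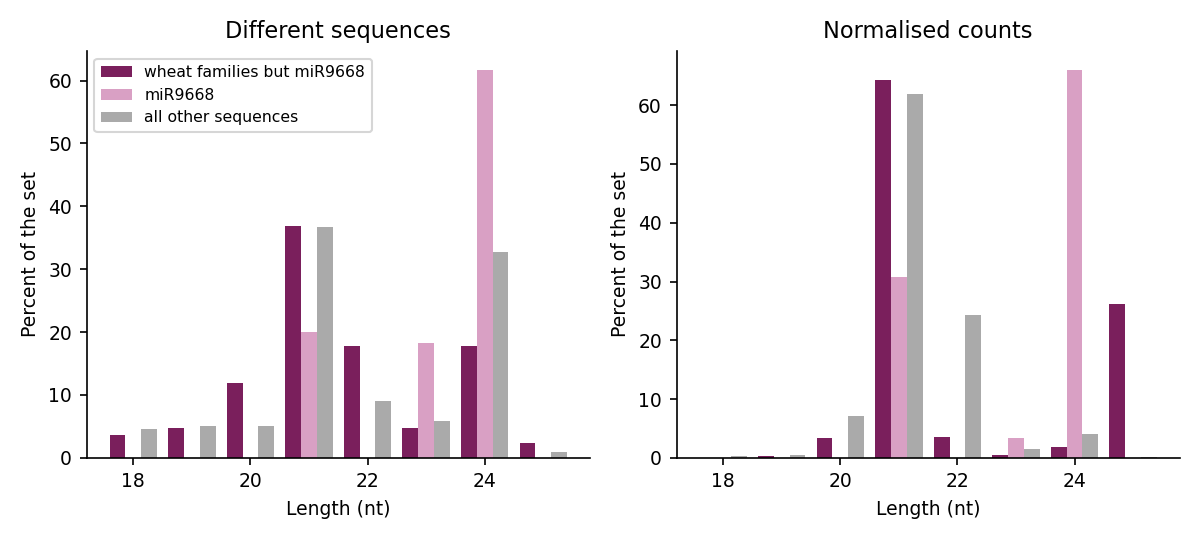
Percent of different sequences (left) and of normalised counts (right, mean of the 4 libraries) by length in nt, for the wheat families without miR9668, for miR9668 and for all other sequences, each set adding up to its whole. Sequences of 24 nt make up 61.7% of the miR9668 sequences and 66.0% of its counts, and the other wheat families carry their counts at 21 and 25 nt.

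The authors sorted the entries by how they mapped. In G1 the known precursor was located in the durum genome (Svevo.v1), in G2 and G3 they match the genome elsewhere, with (G2) or without (G3) a hairpin around the match, and G4 has no genome match. The 57 members of G1 held 98.7% of the member counts, the 52 of G2 0.389%, the 31 of G3 0.787% and the 4 of G4 0.158%. The 140 members with a position lay at 115 loci on all 14 chromosomes, 14 of them within an annotated gene span, and the median distance to the nearest gene was 11516 bp. tae-miR9678-3p lay within TRITD_7Bv1G227810 and tae-miR9660-5p_L+1 within TRITD_6Bv1G207200. The position given for tae-miR9675-3p, a G3 sequence, lay within TRITD_3Av1G020720. The sequence differs from that locus by C18T, so its origin there is not settled. Exons were not known, so exonic and intronic positions were not told apart.

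A group of 3 hairpins lay close together on chromosome 6A, all on the minus strand. The 2 to which some of the most abundant members were assigned are shown with both arms in capitals. The miR9670 precursor (chr6A:110885937-110886015) and the miR9662 precursor (chr6A:110886062-110886161) were 46 bp apart, and the miR9779 hairpin (chr6A:110883094-110883241) was another 2695 bp away. The nearest annotated gene, TRITD_6Av1G047620, was 65986 bp from the miR9779 hairpin.
miR9670 precursor: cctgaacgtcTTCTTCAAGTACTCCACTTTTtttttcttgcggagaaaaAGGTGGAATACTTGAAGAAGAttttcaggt
miR9662 precursor: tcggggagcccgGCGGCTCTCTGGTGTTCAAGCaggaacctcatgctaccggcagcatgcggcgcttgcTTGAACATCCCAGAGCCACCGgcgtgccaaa

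The neighbours differed in how they varied. tae-MIR9779-p3 had 122 normalised counts in TCG, 101 in TWH, 57.4 in SCG and 39.6 in SWH, lower in both L6 libraries (2.13-fold with control parents and 2.56-fold with stressed parents). miR9670 summed to 17906, 19468, 22967 and 17933, and miR9662 to 22823, 23720, 22769 and 21143, so that the highest library was 1.28-fold above the lowest for miR9670 and 1.12-fold for miR9662.

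Of the 140 located members, 116 matched the genome sequence given for their locus base for base, 20 differed at 1 base and 4 at 2 bases. Among the abundant members, the sequence recorded for miR9661-5p differed from it by G14A, that for miR9662b-p5 by C9G, that for miR9654b-3p by G19A and that for miR9776 by A17G (genome base first, position counted from the 5′ end of the read sequence). Neither genotype is Svevo, and base differences between the reads of both genotypes were not examined here.

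The comparison between the genotypes asked which miRNAs set the tolerant and the sensitive line apart in each seed source. The clearest difference was miR9661. tae-miR9661-5p_1ss14GA had 312 normalised counts in TCG, 288 in TWH, 3513 in SCG and 1689 in SWH. Both L6 libraries stood far above both DBA Aurora libraries, 11.3-fold with control parents (log2 difference 3.49, 95% counting interval 3.33 to 3.66) and 5.87-fold with stressed parents (2.55, 2.37 to 2.73). The other arm, tae-MIR9661-p3, had 10.4, 0, 94.9 and 51.5 normalised counts, and was 9.17-fold higher in SCG than TCG and at least 10.9-fold higher in SWH than TWH, with TWH set at 5 reads. Both arms gave the same order of the 4 libraries. Their hairpin lay at chr4A:607648117-607648193 on the plus strand, 9953 bp from the nearest gene.
miR9661 precursor: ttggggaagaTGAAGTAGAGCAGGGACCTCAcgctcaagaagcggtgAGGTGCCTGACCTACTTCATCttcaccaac

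**Figure D3:**
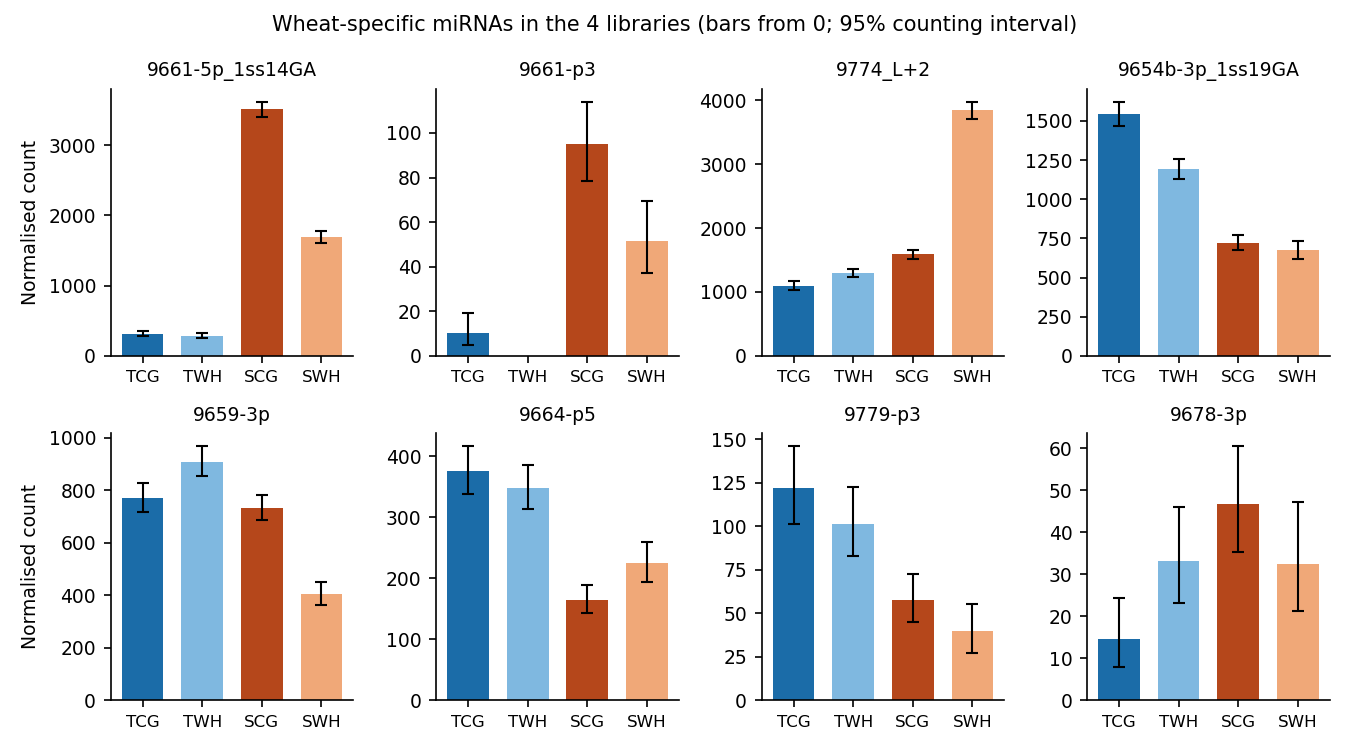
Normalised count (bars from 0) of 8 members in the 4 libraries, with the 95% counting interval (Poisson, from the raw reads), which holds no spread between plants. No bar for miR9661-p3 in TWH stands for fewer than about 5 reads. miR9661-5p and -p3 are high in SCG and SWH, miR9774_L+2 is high in SWH alone, and miR9654b-3p, miR9664-p5 and miR9779-p3 are low in both L6 libraries.

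The miR9654 family lay on the other side. tae-miR9654b-3p_1ss19GA had 1542 normalised counts in TCG, 1192 in TWH, 721 in SCG and 673 in SWH, 2.14-fold higher in DBA Aurora with control parents (log2 SCG over TCG -1.10, -1.22 to -0.98) and 1.77-fold with stressed parents, where it missed the 2-fold criterion. tae-miR9654a-3p differs from it by C4T, inside the seed, and by A19G, and had 68.8, 50.2, 71.2 and 33.0 normalised counts, without that order and called lower in SWH than SCG. tae-MIR9654a-p5_1ss14TC, assigned by the authors to the opposite arm of the miR9654a hairpin, had 24.8, 25.6, 6.66 and 2.997, lower in both L6 libraries. It differs from that hairpin by T14C and matches the miR9654b precursor base for base, so its hairpin of origin is not settled. tae-miR9654a-3p in SCG was as high as in TCG. With 8 reads in SCG and 2.5 in SWH, the log2 differences of tae-MIR9654a-p5_1ss14TC, -1.90 (-3.05 to -0.74) and -3.09 (-4.96 to -1.22), have wide counting intervals.

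tae-MIR9664-p5 had 376, 348, 165 and 224 normalised counts, 2.28-fold higher in TCG than SCG and 1.55-fold higher in TWH than SWH. tae-miR9675-3p, assigned to a locus with no hairpin, had 494, 492, 814 and 768, and tae-miR9660-5p_L+1 had 97.3, 97.5, 182 and 164. These last 2 were nearly equal within each genotype and higher in L6, below the 2-fold criterion.

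A sequence was called higher or lower in a pair of libraries when p was below 0.05 both by Fisher's exact test (two-sided) and by a chi-squared test of the 2 × 2 table, and the difference was above 1 on the log2 scale, which a value against 0 counts as meeting. Between SCG and TCG, 16 of 136 members tested (11.8%) were called higher and 18 (13.2%) lower, against 14.3% and 15.9% of all sequences. Between SWH and TWH, 18 of 136 (13.2%) were called higher and 26 (19.1%) lower, against 12.0% and 17.7% of all sequences. The shares were near those of all sequences, so the calls do not set the wheat families apart. In these comparisons 18 of the 34 and 32 of the 44 called members were at 0 in 1 of the 2 libraries. Among members with at least 100 normalised counts in 1 of the 2 libraries, 4 of 36 (11.1%) were called between SCG and TCG (miR9661-5p, miR9654b-3p, miR9664-p5, miR9779-p3), against 16.3% of all sequences of that level, and 4 of 37 (10.8%) between SWH and TWH (miR9661-5p, miR9774_L+2, miR9659-3p, miR9779-p3), against 7.83%.

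Fewer members were called under stricter rules. Where 1 of the 2 libraries had to hold at least 10 normalised counts, 23 of 97 members (23.7%) were called between SCG and TCG, against 26.1% of all sequences. Between SWH and TWH they were 21 of 97 (21.6%), against 18.5%. Within the genotypes they were 12 of 98 (12.2%) between TWH and TCG, against 13.2%, and 13 of 91 (14.3%) between SWH and SCG, against 10.5%. With Benjamini-Hochberg adjusted p in both pair tests, 29 of 136 members were called between SCG and TCG (24.2% of all sequences) and 34 of 136 between SWH and TWH (24.4%). Within the genotypes they were 17 of 135 between TWH and TCG (12.6%) and 11 of 132 between SWH and SCG (7.98%). With edgeR's exact test and 1 dispersion from the additive fit, the counts out of 144 members were 11 (11.0% of all sequences), 9 (4.45%), 0 (1.23%) and 1 (0.521%) in the same order. miR9661-5p and miR9661-p3 were called by that test in both genotype comparisons, and miR9774_L+2, miR9653b-p3 and miR9654a-p5 between SWH and TWH. The other members called by that test were rare sequences, mostly of miR9668, each at 0 in 1 of the 2 libraries.

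**Figure D4:**
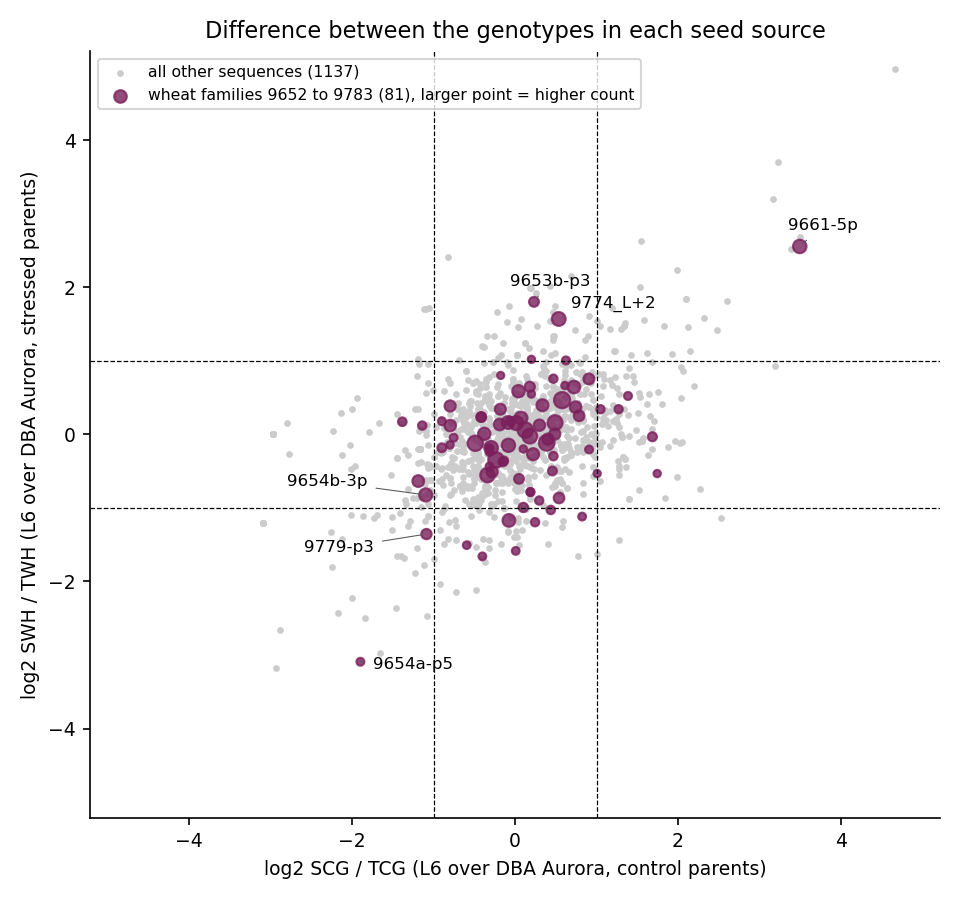
log2 ratio of L6 over DBA Aurora with control parents (horizontal) against that with stressed parents (vertical), for 81 members (purple, larger with a higher mean count) and 1137 other sequences (grey) that were recorded in all 4 libraries at a mean of at least 10 normalised counts, with dashed lines at -1 and 1. Most members lie between the dashed lines, miR9661-5p lies at 3.49 and 2.55, and miR9654a-p5 at -1.90 and -3.09.

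Of the 81 members in that plot, 25 (30.9%) were higher in L6 in both seed sources, 22 (27.2%) were lower in both and 34 (42.0%) lay on opposite sides, against 30.7%, 33.1% and 36.2% of all 1218 sequences of that kind. The median size of the log2 difference between the genotypes was 0.40 for the members and 0.51 for all sequences with control parents, and 0.38 and 0.40 with stressed parents.

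The effect of parental stress was asked within each genotype. In DBA Aurora, 13 of 135 members (9.63%) were called higher in TWH than TCG and 16 (11.9%) lower, against 10.8% and 11.2% of all sequences. In L6, 10 of 132 (7.58%) were called higher in SWH than SCG and 14 (10.6%) lower, against 7.47% and 11.9%. Most of these calls rest on a few reads, since 24 of the 29 members called in DBA Aurora and 16 of the 24 called in L6 were at 0 in 1 of the 2 libraries. Of the members with at least 100 normalised counts in 1 of the 2 libraries, 0 of 35 were called in DBA Aurora (3.25% of all sequences of that level) and 2 of 36 (5.56%) in L6 (2.35%).

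Those 2 were miR9774 and miR9661. tae-miR9774_L+2 had 1096 normalised counts in TCG, 1296 in TWH, 1589 in SCG and 3841 in SWH. SWH was 2.42-fold above SCG (log2 1.27, 1.19 to 1.35) and 2.96-fold above TWH, while TWH was above TCG by 0.24 on the log2 scale (0.13 to 0.36). The difference of the log2 changes in the 2 genotypes was 1.03 with a 95% counting interval of 0.89 to 1.17, and its test was not possible with 1 library per group. tae-MIR9774-p5, the other arm, had 10.4, 19.9, 24.98 and 25.2 normalised counts and did not share the high value in SWH. In the precursor, the sequences of both arms meet in the middle and share a base. The miR9774 precursor (chr3A:316608499-316608552, minus strand) is a short inverted repeat, in which 25 of the first 26 bases are complementary to the other end, and the nearest gene was 473725 bp away.
miR9774 precursor: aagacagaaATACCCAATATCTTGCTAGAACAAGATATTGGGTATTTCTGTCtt

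tae-miR9661-5p_1ss14GA was 2.08-fold lower in SWH than SCG (log2 -1.06, -1.14 to -0.97), and lay within counting error in DBA Aurora (log2 -0.11, -0.34 to 0.12). tae-MIR9661-p3 was also lower in SWH than SCG, by -0.88 on the log2 scale (-1.39 to -0.37), short of the fold criterion. In DBA Aurora that arm was called lower after parental stress, at least 2.19-fold, on 10.4 normalised counts in TCG against 0 in TWH. The difference of the 2 log2 changes for miR9661-5p was -0.94 (-1.19 to -0.70).

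In several further families the leading sequence lay on opposite sides after parental stress in the 2 genotypes, without passing the criterion in either. Of these, 3 are given as examples. tae-miR9659-3p, a 22 nt miRNA, had 772 normalised counts in TCG, 910 in TWH, 733 in SCG and 404 in SWH, with a difference of the log2 changes of -1.10 (-1.32 to -0.87). Its other arm, tae-MIR9659-p5, had 6.21, 10.4, 20.8 and 7.19, and was called lower in SWH than SCG (log2 -1.53, -2.82 to -0.25) and higher in SCG than TCG (1.74, 0.46 to 3.03). Both arms of miR9676 were highest in TCG, with 372, 219, 214 and 237 normalised counts for tae-miR9676-5p and 240, 122, 138 and 159 for tae-MIR9676-p3. The 2 arms therefore gave the same order of TCG against TWH, 1.70-fold and 1.97-fold. tae-MIR9658-p5 had 85.9, 142, 125 and 77.9 and tae-miR9658-3p had 348, 435, 405 and 361, with TWH above TCG and SWH below SCG in both arms.

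tae-miR9678-3p, the germination-related miRNA, was scarce, with 14.5 normalised counts in TCG, 33.1 in TWH, 46.6 in SCG and 32.4 in SWH. TCG was the lowest library, 2.29-fold below TWH (log2 1.19, 0.30 to 2.09) and 3.22-fold below SCG (1.69, 0.84 to 2.53), and both passed the pair criterion. In L6 the change after parental stress was -0.53 (-1.19 to 0.14), which includes 0.

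In the families not yet described, tae-miR9652-5p, of 22 nt, had 2024, 1706, 1650 and 1501 normalised counts, and tae-miR9653b_L+3R-1 had 526, 405, 541 and 608. The opposite arm of the latter, tae-MIR9653b-p3_1ss2GC, had 51.8, 26.5, 60.8 and 92.3, with SWH above TWH by 1.80 on the log2 scale (1.18 to 2.42). The leading sequences of miR9783, miR9673, miR9777, miR9782, miR9655 and miR9778 had between 78.7 and 303 normalised counts in every library, and none of them was called in any pair.

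A further group was highest in TCG. tae-miR9666b-3p had 43.5, 17.0, 16.7 and 19.2 normalised counts, tae-MIR9775-p3_2ss4TG19GA had 46.6, 21.8, 24.98 and 19.2, and tae-MIR9781-p3_1ss5TC had 40.4, 13.3, 18.3 and 14.4. All 3 were called lower in TWH than TCG, by -1.35, -1.10 and -1.61 on the log2 scale, and the other 3 libraries lay close together. The sequence that overlaps the last one, tae-MIR9781-p5_1ss8TC, had 40.4, 50.2, 43.3 and 25.2, without that order. The miR9775 family summed to 55.9, 39.8, 46.6 and 43.2, with TWH below TCG by only -0.49 on the log2 scale. Its other sequences together were thus not highest in TCG. tae-MIR9665-p5_1ss24TC, the leading sequence of miR9665, had 10.4, 20.8, 18.3 and 9.59.

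Of the 81 members recorded in all libraries at a mean of at least 10, 12 were higher after parental stress in both genotypes, 20 lower in both, and 49 (60.5%) lay on opposite sides, against 52.3% of all sequences of that kind. For 33 of the 81 members the counting interval of the difference of the 2 log2 changes left out 0, with 13 (16.0%) above and 20 (24.7%) below 0, against 14.4% and 14.5% of all sequences of that kind, an interval that holds no spread between plants.

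For a genotype effect over the seed sources, and a parental effect over the genotypes, the 4 libraries were fitted with genotype and parental treatment as terms by edgeR's quasi-likelihood test, which leaves 1 residual degree of freedom. No member passed a Benjamini-Hochberg adjusted p of 0.05 for either factor among the 84 members with a mean of at least 10 normalised counts (0.0795% of all 1258 sequences passed for genotype and 0 for parental treatment). At an unadjusted p below 0.05 there were 11 members for genotype (13.8% of all sequences) and 0 for parental treatment (1.59% of all). The lowest adjusted p for genotype was that of tae-miR9661-5p_1ss14GA (log2 3.03, adjusted p = 0.0924 by edgeR). limma called 0 members for either factor (for genotype, 0.874% of all sequences with a pseudocount of 1 and 0.318% with 10), and so did edgeR with size factors of the DESeq2 type (0.159%). For genotype, DESeq2 called 4 members (6.35% of all sequences with an adjusted p), namely miR9661-5p, miR9661-p3 and miR9774_L+2 as higher and miR9654b-3p as lower in L6, and edgeR with no filter on low counts called 8 (6.54% of all), adding miR9773_R+1 as higher and miR9654a-p5, miR9779-p3 and miR9664-p5 as lower. For parental treatment none of these settings called a member (0.142% of all sequences without the filter and 0 otherwise).

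With sequences assigned to hairpins as by the authors, both arms were recorded at a mean of at least 10 for 18 hairpins in which neither sequence lies within the other. In miR9774, which is among them, the sequences of both arms share a base. Of the hairpins, 9 gave more of the 3′ arm and 9 more of the 5′ arm in every library where both were recorded, so no arm balance switched sides. It did shift in size. The 3′ to 5′ ratio assigned to miR9662 was 2.77 in TCG, 2.11 in TWH, 1.67 in SCG and 1.49 in SWH. Its 5′ sequence is named miR9662b and differs from that hairpin by C9G, so this ratio need not be the balance of a single hairpin. The ratio assigned to miR9654a was 2.77, 1.96, 10.7 and 11, separating the genotypes. Its 5′ sequence matches the miR9654b precursor base for base and not that of miR9654a, so this ratio need not be the balance of a single hairpin. That 5′ sequence in L6 and the 3′ arm of miR9778 in SWH rest on fewer than 10 reads. The ratio of miR9778, whose 3′ sequence differs from its hairpin by T8C, was 0.224, 0.155, 0.0859 and 0.0459. That of miR9664 was 9.98, 14.7, 18.0 and 15.5. The ratios of miR9672a (2.77 to 3.02) and miR9676 (0.558 to 0.672) hardly varied. Both miR9672a sequences also match the miR9672b precursor, so their locus is not settled.

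**Figure D5:**
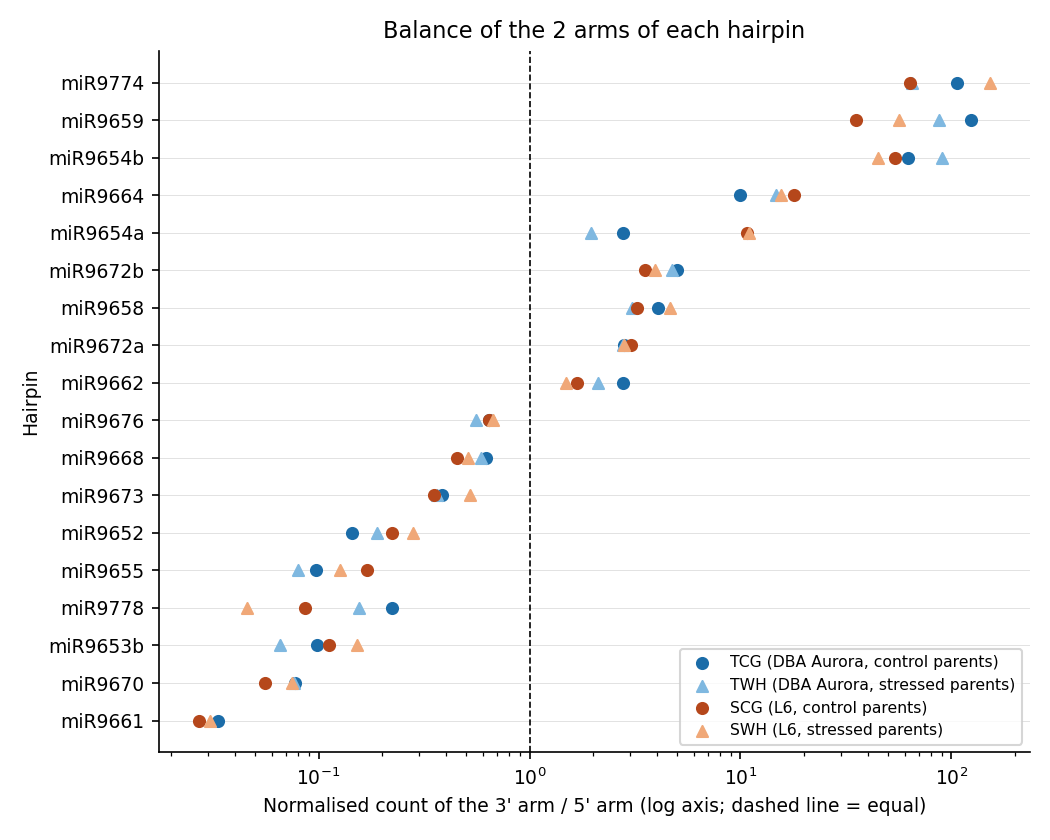
Ratio of the normalised count of the 3′ arm to that of the 5′ arm for 18 hairpins (rows) in the 4 libraries on a log axis, with a dashed line at equal arms. The point of miR9661 in TWH is left out because its 3′ arm was at 0. Arms are as assigned by the authors. No hairpin crosses the dashed line, and for miR9654a the 2 L6 points (10.7 and 11) stand apart from the 2 DBA Aurora points (1.96 and 2.77). The 5′ sequence of that row matches the miR9654b precursor and not that of miR9654a base for base.

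The main miR9672 sequences were assigned by the authors to 2 loci, miR9672a at chr5A:435495340-435495484 and miR9672b at chr5B:437511232-437511353. The miR9672a sequences of both arms also match the miR9672b precursor base for base, so the counts below do not compare the loci. The sequences named miR9672a-3p and miR9672b-p3_1ss3GA shared a run of 14 nt and were offset along the stem, so that their seeds differ. tae-miR9672a-3p had 820, 703, 773 and 786 normalised counts, against 9252 to 12986 for the miR9672b sequence, and neither passed the fold criterion between any 2 libraries.

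miR9668 was unlike the other families. Its 2 most abundant sequences were assigned in the deposited table to the 2 arms of 1 hairpin on chromosome 1B and held 72.5% of the family's counts. Neither matches that hairpin base for base, since the p5 sequence differs from it by A11C and A23G and the p3 sequence by T4C, and their origin from this locus was not tested. tae-MIR9668-p5_1ss23AG had 920 normalised counts in TCG, 783 in TWH, 968 in SCG and 912 in SWH, and tae-MIR9668-p3_1ss4TC had 570, 462, 439 and 464, so both were steady. The other 58 sequences had means of at most 28.5, and 52 of the 59 others differed from the most abundant one at no more than 1 base where they overlap it by 16 nt or more. A few are shown to make the single-base differences visible.
tae-MIR9668-p5_1ss23AG: cAAGTATTttcggacggagggagt
tae-MIR9668-p3_2ss13GA23AG: cAAGTATTttcgaacggagggagt
tae-MIR9668-p3_2ss12GA23AG: cAAGTATTttcagacggagggagt
tae-MIR9668-p3_2ss17GA23AG: cAAGTATTttcggacgaagggagt
tae-MIR9668-p3_2ss15CT23AG: cAAGTATTttcggatggagggagt
tae-MIR9668-p3_1ss4TC: cTCCGTCCggaaatacttgtc

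The 60 sequences mapped to 59 loci on all 14 chromosomes, 46 in G2 and 12 in G3. None of the single-base relatives reached more than 4.11% of the most abundant sequence in any library. Of the 60, 52 (86.7%) shared a run of 16 nt on 1 strand or the other with the wheat families miR1117 to miR1139, against 0 of the other 84 members and 7.34% of the remaining sequences. Within the miR9668 sequences, 5 pairs that differ only in length had the same read numbers in all 4 libraries, as did 1 pair of miR9652, so the members of such a pair cannot be told apart.

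Members recorded in 1 genotype alone were all rare. Of the 144, 12 (8.33%) were found only in DBA Aurora and 9 (6.25%) only in L6, against 6.82% and 6.35% of all sequences. For the seed sources these were 8 (5.56%) in CG alone and 8 (5.56%) in WH alone, against 5.97% and 3.41% of all sequences. The highest counts were 13.2 for tae-MIR9668-p3_2ss18GA21AG and tae-MIR9783-p5_2ss13GC23GA in SWH, 11.7 for tae-MIR9668-p3_1ss5GC in SCG and 11.4 for tae-MIR9668-p3_2ss14TC17GA in TCG, all within about 3 times the level at which a sequence is recorded at all.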

How the data were processed

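Small RNA was sequenced from pooled shoots of durum wheat seedlings in 4 libraries, 1 per group, and the deposited table lists each miRNA with its genome position, precursor and reads. The authors ran ACGT101-miR (version not given in the sources used here): reads of 18 to 25 nt were kept, other RNA families, repeats and mRNA were removed, and sequences were matched to miRBase 22.1 and the Svevo.v1 genome. The read columns as deposited are estimated counts, since 4.78% of the TCG values and a like share in the other libraries are not whole. The normalised columns deposited by the authors are a scaled signal, the reads times 1 factor per library (1.04, 0.946, 0.833 and 1.20 for TCG, TWH, SCG and SWH). Reads of near-identical sequences can be shared between names.

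From these columns, 2174 entries were reduced to 2111 different sequences. Each pair of libraries was tested on normalised counts (rounded for Fisher's test), with the other sequences as the margin. The additive fits used reads rounded to whole numbers and sequences with a mean of at least 10 normalised counts (R 4.3.3, edgeR 4.0.16 with TMM, limma 3.58.1, DESeq2 1.42.0; Python 3.11.15, scipy 1.17.1). The counting intervals are 95% intervals from the reads and cover counting error only. The tests were tried on simulated data. The members, lists and tests were chosen with earlier results of these data known. Sequences were named for a high level, for leading their family, for a call with at least 100 normalised counts, for both arms being recorded, or because the study singled them out; miR9653b-p3, miR9666b-3p, miR9775, miR9781-p3 and the miR9668 variants shown were added after their values were seen. Chromosome names were given to the assembly's sequences by their order in the gene table, checked by their last positions. Alternatives were other scalings, filters, pseudocounts and tools.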

Additional observations from a re-analysis of the deposited data

Results flagged for a closer look

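A set of 3 miR9668 sequences was called in opposite directions after parental stress in the 2 genotypes, and the difference was not tested. tae-MIR9668-p3_2ss10TC18CT was at 0 in TCG and SWH and at 8.52 and 8.33 normalised counts in TWH and SCG. tae-MIR9668-p3_2ss1AG22AG was at 0 in the same 2 libraries and at 6.63 and 9.16 in TWH and SCG. tae-MIR9668-p3_2ss20AG24AT was at 10.4 in TCG and 5.99 in SWH and at 0 in the other libraries. All of these values lie close to the level of about 5 reads at which a sequence is recorded.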

How the results depend on the processing

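The counts of called members between 2 libraries depended on how few reads were admitted. Between TWH and TCG the 29 members called became 17 with Benjamini-Hochberg adjusted p, 12 with at least 10 normalised counts in 1 library and 0 with edgeR's exact test. Between SWH and SCG the 24 became 11, 13 and 1 under the same settings. Between SCG and TCG the 34 became 11 with the exact test, and between SWH and TWH the 44 became 21 with at least 10 normalised counts and 9 with the exact test. Raw reads, TMM or clean-read scaling, and names in place of sequences gave counts within 1.5 times of these, although with names the split between TWH and TCG was 17 higher and 12 lower in place of 13 and 16, and with clean reads that between SWH and SCG was 9 higher and 21 lower in place of 10 and 14. For genotype over both seed sources the 0 members called became 4 with DESeq2 and 8 without the filter on low counts. No called fold change of a named member was reversed. Among fold changes of named members that were not called, 4 changed sign with TMM scaling and 6 with clean-read scaling. Of 208 fold changes of named members, 197 kept their side of the threshold with a pseudocount of 10 and 11 no longer passed. With mature sequences alone, 72 of the 124 family sums moved beyond their counting error, and miR9670 fell from 17906 to 1279 and miR9672 from 16701 to 820 normalised counts in TCG. No paired analysis was possible because each group had 1 library. Leaving out a library leaves no residual degrees of freedom, so only the fold changes were recomputed, which then are those of the single pairs given in the text. Depending on the library left out, 21 to 30 of these fold changes did not keep the sign of the additive fit. With 1 pool of seedlings per group, none of these settings measures the spread between plants.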
